A study of Mus musculus with 6 samples.

Results

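The genes described are 10 matricellular and fibrillar proteins of the extracellular matrix, taken by symbol from the deposited table of TPM, a transcript abundance scaled by gene length and library total: FN1, SPP1, SPARC, POSTN, TNC, THBS1, THBS2, FBN1, FBLN1 and VCAN. All 10 were among its 14915 symbols. All samples are labelled as B16F10, a mouse melanoma line, and RNA-seq was run on 3 libraries labelled ZBTB5-S127A (S127A) and 3 labelled WT. In S127A, 1 serine of the zinc finger and BTB domain protein ZBTB5 is replaced by alanine, so that this site cannot be phosphorylated. Both groups received TNFα, an inflammatory cytokine, with amino acids limited, and the stated interest was how this phosphorylation bears on mTORC1 activation by inflammation. No untreated cells were analysed here, so each difference lies between the labelled lines under treatment. Nothing in the labels says how many clones the S127A line represents or whether replicates came from separate cultures. The p-values therefore set a difference against the spread between libraries of a group, and that spread may be technical.

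The extracellular matrix is built on fibrous scaffolds and decorated by proteins that signal more than they support. Fibronectin (FN1) and fibrillin (FBN1) are scaffold proteins, laid down as fibrils and microfibrils, and fibulin (FBLN1) joins them as an adaptor. Matricellular proteins such as osteopontin (SPP1), SPARC, periostin (POSTN), tenascin C (TNC) and the thrombospondins (THBS1, THBS2) bind matrix, integrins or growth factors and change how cells adhere. Versican (VCAN) is a large chondroitin sulfate proteoglycan that binds hyaluronan. In melanoma, SPARC, SPP1, FN1 and TNC are long studied in invasion.

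The libraries labelled S127A differed from WT far beyond these genes. Within a group the libraries correlated at r = 0.998 across the 10348 genes tested, and between groups at r of 0.676 to 0.679 (genes are not independent replicates). TPM summed over the table to 831872 ± 1326 in S127A and 863992 ± 903 in WT (SD, n = 3 each), and as TPM carries no read number, library depth is unknown. The edited gene, ZBTB5, stood at 9.24, 8.24 and 9.21 TPM in S127A against 15.9, 14.9 and 15.7 TPM in WT, a log2 difference of -0.74 (limma adjusted p = 5.46e-07), which does not show the substitution itself. Of 10 melanocyte markers all 10 were lower in S127A, beside 49.8% of all genes tested. The 10 summed to 114 to 123 TPM in S127A, against 18736 to 18903 TPM in WT. The S127A libraries thus lack most of the melanocyte RNA that the label B16F10 implies. Whether both groups are the same cell line was not tested, and a difference of line and one of ZBTB5 cannot be told apart here. Whether fewer expressing cells or less RNA per cell lies behind a level cannot be told apart in bulk RNA.

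RefSeq promoter windows (GRCm38.p6, the same assembly as mm10), from 250 bases before to 50 after a start site, were found for 8 of the 10 genes. FN1 and THBS1 had no entry. Those of SPP1 and THBS2, which were higher in S127A, and of SPARC and FBLN1, which were lower, are shown to set side by side the start regions of genes that moved in opposite directions. SPP1 and FBLN1 have 2 windows each, of which the first is shown. Capitals mark matches, on either strand, to the motifs searched.
SPP1, chr5:104434861-104435160, plus strand: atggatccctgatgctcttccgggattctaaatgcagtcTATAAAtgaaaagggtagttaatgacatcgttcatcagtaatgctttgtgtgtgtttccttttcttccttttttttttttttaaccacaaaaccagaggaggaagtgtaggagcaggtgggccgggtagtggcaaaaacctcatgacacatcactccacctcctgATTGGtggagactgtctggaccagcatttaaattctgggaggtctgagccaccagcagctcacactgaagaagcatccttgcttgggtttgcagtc
THBS2, chr17:14694213-14694512, minus strand: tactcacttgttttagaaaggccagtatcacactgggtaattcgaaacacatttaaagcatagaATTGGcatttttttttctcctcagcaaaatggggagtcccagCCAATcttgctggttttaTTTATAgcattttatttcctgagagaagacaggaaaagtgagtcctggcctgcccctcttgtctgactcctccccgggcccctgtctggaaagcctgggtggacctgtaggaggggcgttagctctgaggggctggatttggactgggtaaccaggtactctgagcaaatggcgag
SPARC, chr11:55420031-55420330, minus strand: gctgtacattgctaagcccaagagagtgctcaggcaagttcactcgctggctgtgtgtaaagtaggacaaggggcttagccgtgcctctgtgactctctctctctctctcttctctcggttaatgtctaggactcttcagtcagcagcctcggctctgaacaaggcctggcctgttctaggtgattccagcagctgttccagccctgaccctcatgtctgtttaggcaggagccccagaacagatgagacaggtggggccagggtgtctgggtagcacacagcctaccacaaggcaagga
FBLN1, chr15:85205699-85205998, plus strand: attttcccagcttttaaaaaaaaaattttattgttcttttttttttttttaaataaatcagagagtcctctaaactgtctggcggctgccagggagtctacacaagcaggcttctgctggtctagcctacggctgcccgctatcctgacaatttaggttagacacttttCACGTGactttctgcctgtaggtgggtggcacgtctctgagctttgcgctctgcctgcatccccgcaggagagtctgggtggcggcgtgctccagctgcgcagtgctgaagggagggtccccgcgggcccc

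The motifs were the TATA box (TATAAA), AP-1 (TGANTCA), CRE (TGACGTCA), the E-box CACGTG, which MITF and TFEB can bind, TEAD (GGAATG), SP1 (GGGCGG), the CCAAT box (CCAAT), NF-kB (GGAAANTCC) and a SMAD palindrome (GTCTAGAC). The first FBLN1 window held CACGTG with its first base 81 bases before the start site and the second at 140 bases before its own, where it also held 2 SP1 matches, and 7.15% of all 32851 promoter windows hold one. The first SPP1 window held ATTGG, the reverse complement of CCAAT, at 46 bases before the start and TATAAA at 211 bases before it, and the second held none of the motifs. CCAAT boxes are present in 37.4% of all windows and TATAAA in 13.6%. The THBS2 window held 2 CCAAT boxes and TTTATA, the reverse complement of TATAAA, and the SPARC window held none of these letters. No window of the 8 genes held the AP-1, NF-kB or TEAD letters, which 7.81%, 1.25% and 14.7% of all windows hold. None of the motifs overlapped in the 4 windows. A match is a string of letters and not a measured site.

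SPP1 and FN1 were the most abundant of the 10 in S127A, whereas SPARC made up most of the summed TPM of the 10 in WT. Of the 10 genes 7 reached a mean of 1 TPM over the 6 libraries and were tested. SPP1, FN1, THBS2 and THBS1 were higher in S127A and FBLN1, SPARC and POSTN were lower. All 7 passed at an adjusted p under 0.05, but so did 90.0% of all 10348 genes tested (40.2% higher, 49.8% lower), so the share that passed is not a result about these genes. A change of at least 2-fold on the log2(TPM + 1) scale was seen for 3 higher and 3 lower, against 15.5% higher and 19.9% lower, or 35.4% together, of all genes tested. Of the 7, FN1, SPP1, SPARC and THBS1 were at 1 TPM or more in every library, while THBS2, POSTN and FBLN1 were near 0 in one group and entered the test only through the other. TNC, FBN1 and VCAN stayed under 1 TPM in every library. The median log2 difference of the 7 was 0.62 and their median absolute log2 difference 3.2, beside -0.12 and 0.69 over all genes tested. The 0.62 is the value of THBS1, which lay between 3 larger rises and 3 falls. As THBS2, POSTN and FBLN1 entered through 1 group and the genes were chosen with earlier results known, neither these medians nor the 2-fold counts are a result about the set.

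**Figure D1:**
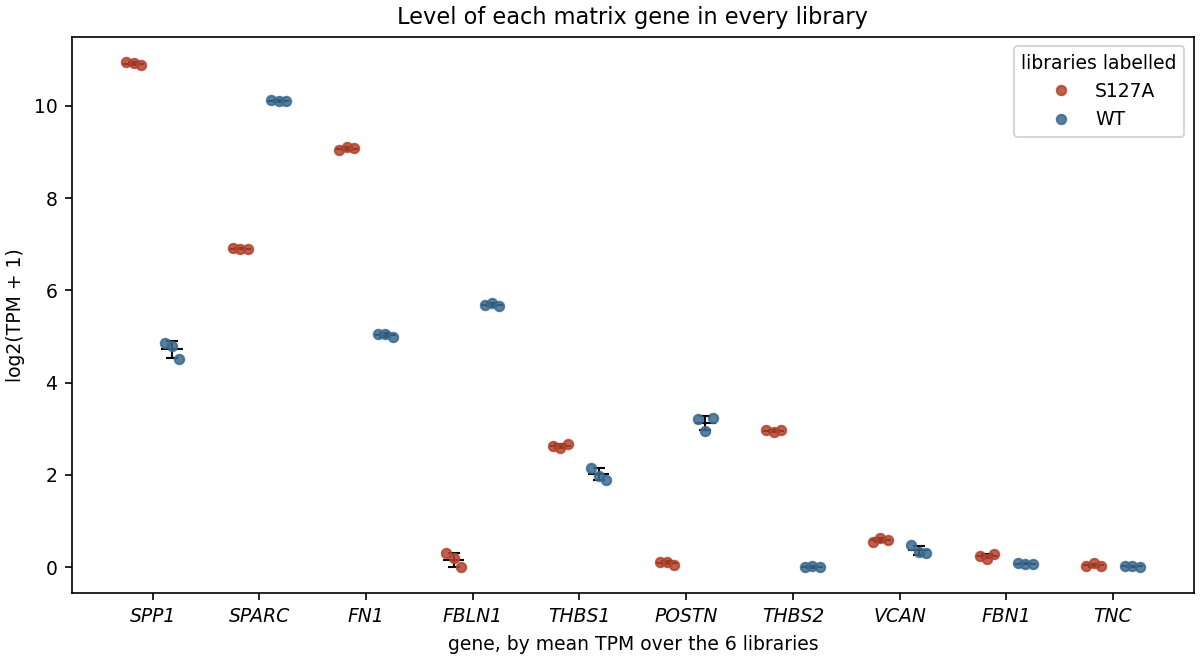
Level of each matrix gene as log2(TPM + 1) in the 3 S127A libraries (left of each pair) and the 3 WT libraries (right), ordered by mean TPM; points are libraries, lines the mean and bars the SD. SPP1 and FN1 stand high in S127A, SPARC and FBLN1 in WT, and VCAN, FBN1 and TNC near 0 in both.

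Osteopontin, SPP1 (ENSMUSG00000029304.14, mm10 chromosome 5, 104435118 to 104441050, plus strand), is a secreted phosphoprotein that binds αv integrins and CD44. It held 1962.68, 1947.08 and 1881.14 TPM in S127A, against 28.2, 26.72 and 21.96 TPM in WT. All 3 S127A libraries lay far above all 3 WT libraries, and the ratio of the mean TPM was 75.3. The log2 difference was 6.19 (SE 0.0722, 95% interval 6.03 to 6.35, limma adjusted p = 5.44e-14). By mean TPM it ranked 61 of 14915 listed genes in S127A and 5548 in WT, and its difference ranked 51 among the 4161 genes called higher. The replicate spread was 2.24% of the mean in S127A and 12.7% in WT.

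Fibronectin, FN1 (ENSMUSG00000026193.15, chromosome 1, 71585520 to 71653200, minus strand), is the fibril-forming glycoprotein that integrin α5β1 assembles at the cell surface. Its levels were 522.76, 549.39 and 540.59 TPM in S127A, against 32.3, 32.2 and 30.62 TPM in WT. The groups did not overlap, and the S127A mean was 17.0 times the WT mean. The log2 difference was 4.04 (SE 0.0343, 95% interval 3.97 to 4.12, limma adjusted p = 1.20e-14). Its rank by mean TPM was 192 in S127A and 4853 in WT. The annotation gives FN1 9 protein-coding transcripts, and a level per gene does not show which splice forms were present.

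The thrombospondins are secreted glycoproteins that bind CD47 and are known as inhibitors of angiogenesis. THBS2 (ENSMUSG00000023885.9, chromosome 17, 14665500 to 14694235, minus strand) held 6.8, 6.6 and 6.84 TPM in S127A, whereas WT replicates 1 and 3 were listed at 0 and WT replicate 2 at 0.02 TPM. It was thus detected at a low level in all 3 S127A libraries and was at or near 0 in WT (log2 difference 2.94, SE 0.0697, limma adjusted p = 1.04e-11). THBS1 (ENSMUSG00000040152.8, chromosome 2, 118111876 to 118127133, plus strand), which also activates latent TGF-β, had 5.2, 5.03 and 5.38 TPM in S127A against 3.44, 2.96 and 2.72 TPM in WT. The groups did not overlap, but the difference was the smallest of the 7, with a log2 difference of 0.62 (SE 0.0794, 95% interval 0.45 to 0.80, limma adjusted p = 2.02e-05), at the percentile 46.2 of absolute differences over all genes tested. Within each S127A library THBS2 stood at 1.27 to 1.31 times THBS1, on TPM, which is per length. In WT THBS1 was the only one of the pair above 0.02 TPM. These log2 differences depend on the pseudocount: with 5 and 0.1 TPM in place of 1, that of THBS2 was 1.23 and 6.01 and that of THBS1 0.345 and 0.762.

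SPARC (ENSMUSG00000018593.13, chromosome 11, 55394500 to 55423183, minus strand) is a collagen-binding, counter-adhesive glycoprotein. It stood at 119.7, 117.55 and 118.89 TPM in S127A, against 1115.69, 1095.76 and 1093.36 TPM in WT. The WT mean was 9.28 times that of S127A, and the replicates varied by 0.915% of the mean in S127A and 1.11% in WT. The log2 difference was -3.20 (SE 0.0259, 95% interval -3.26 to -3.15, limma adjusted p = 1.19e-14). SPARC ranked 1212 of 14915 in S127A and 101 in WT, so it was lower but still well expressed in S127A.

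Fibulin 1, FBLN1 (ENSMUSG00000006369.14, chromosome 15, 85205949 to 85286535, plus strand), an adaptor of fibronectin and elastic fibres, was close to absent from S127A. Its S127A levels were 0.23, 0.15 and 0 TPM, against 50.34, 51.68 and 49.92 TPM in WT. This was the largest fall of the 7 (log2 difference -5.52, SE 0.0802, 95% interval -5.70 to -5.35, limma adjusted p = 2.44e-13), at rank 96 among the 5154 genes called lower. Periostin, POSTN (ENSMUSG00000027750.16, chromosome 3, 54361109 to 54391037, plus strand), binds integrins and collagen and is best known from fibroblasts. It had 0.08, 0.08 and 0.04 TPM in S127A and 8.25, 6.74 and 8.38 TPM in WT (log2 difference -3.04, SE 0.0889, limma adjusted p = 6.03e-11). Both genes were expressed in every WT library and near 0 in every S127A library. Their sizes too depend on the pseudocount, from -7.97 to -3.44 for FBLN1 and from -5.57 to -1.33 for POSTN.

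The other scaffold and large glycoprotein genes were barely expressed. Versican, VCAN (ENSMUSG00000021614.16, chromosome 13, 89655312 to 89742509, minus strand), had 0.45, 0.54 and 0.5 TPM in S127A and 0.39, 0.26 and 0.23 TPM in WT. FBN1 (ENSMUSG00000027204.13, chromosome 2, 125300594 to 125507993, minus strand) had 0.18, 0.14 and 0.22 TPM in S127A and 0.07, 0.05 and 0.05 TPM in WT. TNC (ENSMUSG00000028364.15, chromosome 4, 63959785 to 64047015, minus strand) had 0.02, 0.06 and 0.02 TPM in S127A and 0.02, 0.02 and 0 TPM in WT. The groups did not overlap for VCAN and FBN1 and did overlap for TNC, and groups fail to overlap for 35.8% of all genes with a mean above 0 and under 1 TPM. A two-sided exact permutation test over libraries gave p = 0.1 for VCAN and FBN1, the smallest that 3 against 3 allows, and p = 0.6 for TNC. With no filter on low values limma called VCAN (log2 difference 0.21, adjusted p = 0.0101) and FBN1 (0.16, adjusted p = 0.00533) higher. Over all 10 genes the groups did not overlap for 9, against 75.0% of the 14385 genes with a value above 0 in a library.

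**Figure D2:**
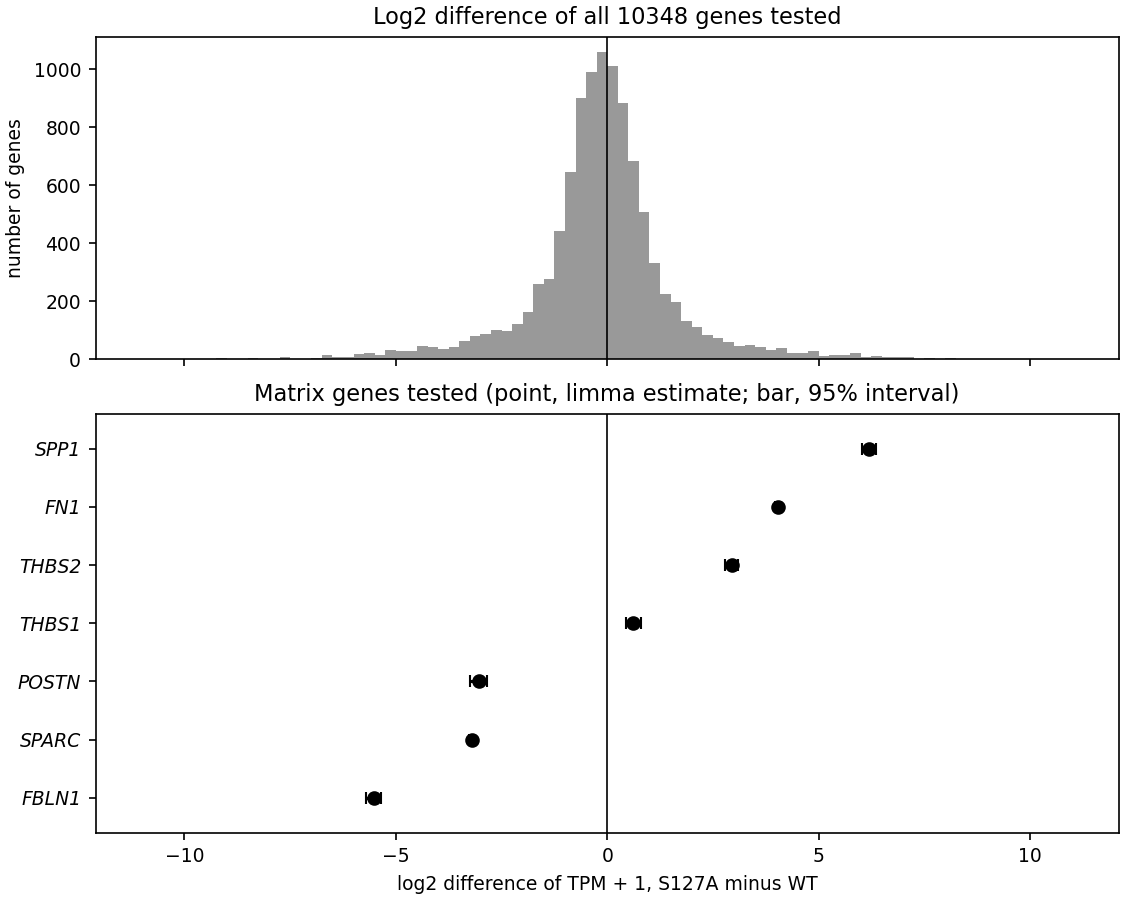
Above, the number of genes by log2 difference of TPM + 1 (S127A minus WT) over all 10348 genes tested; below, the limma estimate and 95% interval for the 7 matrix genes tested, on the same axis. SPP1 at 6.19 and FBLN1 at -5.52 lie in the outer tails and THBS1 at 0.62 within the bulk.

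Ordered by TPM, the S127A libraries ran from SPP1 through FN1, SPARC, THBS2, THBS1 and VCAN to FBN1, FBLN1, POSTN and TNC. Neighbours in that order differed in every library down to FBN1, after which the ranges of FBN1 and FBLN1, FBLN1 and POSTN, and POSTN and TNC overlapped. In WT the order was SPARC, FBLN1, FN1, SPP1, POSTN, THBS1, VCAN, FBN1, TNC and THBS2, and only TNC and THBS2 overlapped. The 10 genes summed to 2599 ± 39.9 TPM in S127A and 1221 ± 16.2 TPM in WT (SD, n = 3 each), or 0.312% of the table's TPM in S127A and 0.141% in WT. SPP1 made up 74.3 ± 0.659% of the sum in S127A and 2.10 ± 0.244% in WT, and FN1 20.7 ± 0.634% in S127A and 2.60 ± 0.0561% in WT. SPARC made up 4.57 ± 0.0903% in S127A and 90.2 ± 0.284% in WT. Without SPP1 the order of the sums turned, with 669 ± 12.4 TPM in S127A and 1195 ± 13.5 TPM in WT. In each library the ratio of SPP1 to SPARC was 15.8 to 16.6 in S127A and 0.0201 to 0.0253 in WT, and that of FN1 to SPARC 4.37 to 4.67 in S127A and 0.028 to 0.0294 in WT.

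**Figure D3:**
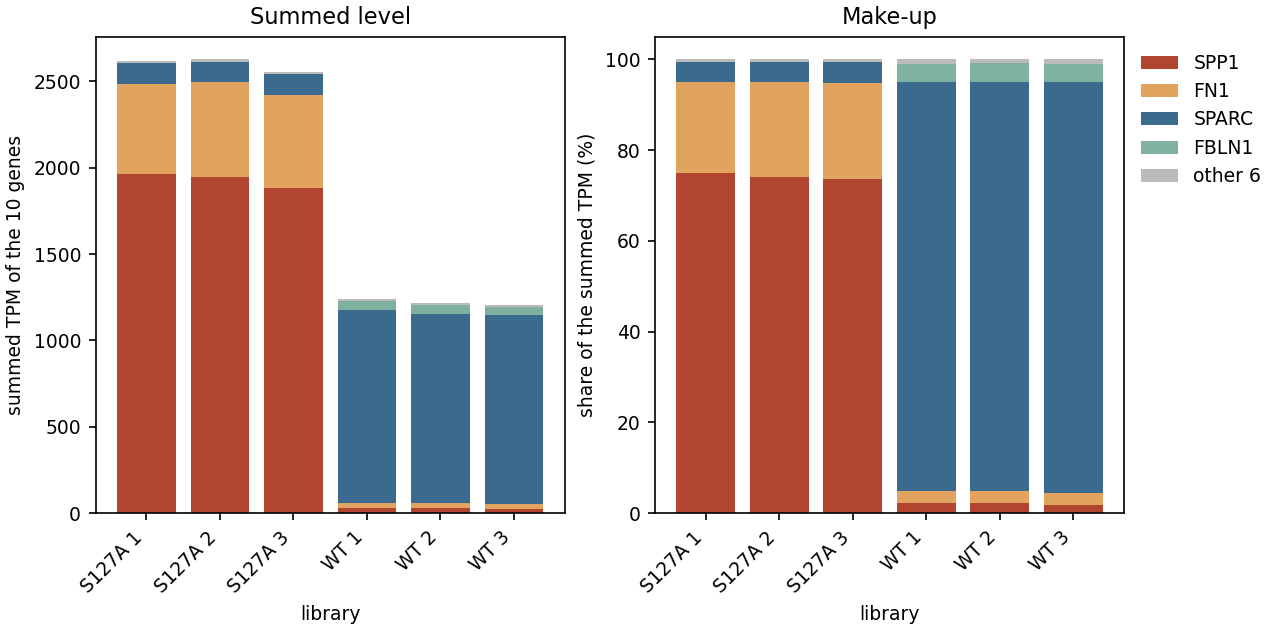
Summed TPM of the 10 genes in each library (left) and the share of that sum held by each gene (right), with S127A libraries left of WT; colours mark SPP1, FN1, SPARC, FBLN1 and the other 6 together. SPP1 fills 74.3% of the S127A sum and SPARC 90.2% of the WT sum on average.

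Close relatives of these proteins went both ways. Of 27 relatives 24 were listed and 10 tested, of which 3 were higher and 7 lower in S127A, beside 40.2% higher and 49.8% lower of all genes tested. TNXB and FBLN2 were near 0 in WT, and SPARCL1, SMOC1, HMCN1 and BCAN near 0 in S127A, so each entered the test only through the other group. The counts are thus no result about the list. The median log2 difference of the 10 was -1.74. That median rests on low genes: it was -0.82 with a pseudocount of 5, -0.50 over the 7 with a mean of at least 5 TPM (3 higher, 4 lower) and 0 over 23 with no filter (5 higher, 7 lower). FBLN2, a fibulin of basement membranes and elastic fibres, rose to 125 ± 7.14 TPM in S127A, against 0.117 ± 0.110 TPM in WT (log2 difference 6.82, limma adjusted p = 5.06e-14), and TNXB, a tenascin, to 12.9 ± 0.627 TPM, against 0.0700 ± 0.0173 TPM in WT (3.70). The SPARC relative SPARCL1 fell to 0.203 ± 0.0231 TPM in S127A, against 115 ± 2.63 TPM in WT (log2 difference -6.59, limma adjusted p = 1.19e-14). FBLN5, which binds elastin and integrins, fell to 27.8 ± 1.15 TPM, against 212 ± 4.84 TPM in WT (-2.89). Named by role after their values were seen, THBS3 was lower in S127A (4.89 ± 0.569 against 19.6 ± 0.999 TPM in WT) and EFEMP2, which is fibulin 4, higher (93.6 ± 4.18 against 32.2 ± 2.36 TPM in WT). Fibulin and thrombospondin genes therefore went in both directions. None of the 6 CCN genes was found under a current or older symbol, and they were not analysed here.

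Receptors at the cell surface for the 10 proteins also went both ways. Of 17 receptors 12 were tested, 7 higher and 5 lower in S127A, with a median log2 difference of 0.30. Of all genes tested 40.2% were higher and 49.8% lower, and ITGA9 and ITGB3 entered the test only through WT, so the counts are no result about the list. CD47, a thrombospondin receptor, rose to 176 ± 2.19 TPM in S127A, against 33.5 ± 2.48 TPM in WT (log2 difference 2.36, limma adjusted p = 3.94e-12), and the integrin subunit ITGA3 to 62.3 ± 2.59 TPM, against 1.72 ± 0.226 TPM in WT (4.54). ITGA9, whose integrin binds tenascin C and osteopontin, fell to 0.00667 ± 0.0115 TPM in S127A, against 9.63 ± 0.405 TPM in WT (-3.40), and the heparan sulfate proteoglycan SDC1 to 4.54 ± 0.531 TPM, against 56.9 ± 2.06 TPM in WT (-3.39). The next receptors were named by their role after their values were seen. ITGA4, whose integrin binds fibronectin and osteopontin, fell to 2.46 ± 0.189 TPM in S127A, against 29.0 ± 1.83 TPM in WT (-3.11). The fibronectin receptor pair had ITGA5 at 46.4 ± 0.624 TPM in S127A and 18.6 ± 0.693 TPM in WT, and ITGB1 at 458 ± 13.6 TPM in S127A and 397 ± 6.83 TPM in WT. ITGB3, the β3 partner of αv, was at 0.143 ± 0.0902 TPM in S127A and 13.4 ± 1.26 TPM in WT, while its alternative ITGB5 was at 105 ± 4.05 TPM in S127A and 29.6 ± 0.889 TPM in WT. ITGAV was at 72.2 ± 1.47 TPM in S127A and 82.8 ± 4.78 TPM in WT (log2 difference -0.19, limma adjusted p = 0.00163), a call lost with TMM factors (-0.07, adjusted p = 0.128). CD44, the hyaluronan and osteopontin receptor, was at 321 ± 5.95 TPM in S127A and 236 ± 13.5 TPM in WT.

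Genes of microfibrils and elastic fibres, the structures that fibrillin builds, also went both ways. Of 18 such genes 16 were listed and 10 tested, and 7 were higher and 3 lower in S127A, beside 40.2% higher and 49.8% lower of all genes tested. All 10 differed at least 2-fold, beside 35.4% of all genes tested. LTBP1, LTBP2, EMILIN2 and FBLN2 averaged 0.300, 0.0367, 0.0600 and 0.117 TPM in WT and entered the test only through S127A, so neither share is a result about the list. The median log2 difference was 2.13, with 3.11 and 1.18 at pseudocounts of 0.1 and 5, and 0.79 over 15 genes with no filter. LTBP1, which tethers latent TGF-β to fibronectin and fibrillin, rose to 122 ± 4.28 TPM in S127A, against 0.300 ± 0.0624 TPM in WT (log2 difference 6.57, limma adjusted p = 1.40e-14), and LTBP4 to 98.1 ± 5.15 TPM, against 4.80 ± 0.164 TPM in WT (4.09). This list shares FBLN2, FBLN5 and EFEMP2 with the relatives. Of 10 TGF-β ligands, receptors and SMADs 4 were higher and 4 lower, and 2 did not pass, again beside 40.2% higher and 49.8% lower of all genes tested. TGFB1 rose to 93.3 ± 2.85 TPM in S127A, against 25.1 ± 1.07 TPM in WT (1.86), and SMAD7, a feedback inhibitor of the pathway, to 22.2 ± 0.575 TPM, against 3.60 ± 0.280 TPM in WT (2.34). SMAD3, a signal transducer, rose to 67.7 ± 0.278 TPM, against 24.5 ± 0.728 TPM in WT, and the co-receptor TGFBR3 to 36.4 ± 0.709 TPM, against 4.80 ± 0.311 TPM in WT. The 4 lower genes, chosen for naming once values were known, fell as follows: the ligands TGFB2, to 0.740 ± 0.0200 TPM in S127A, against 7.38 ± 0.302 TPM in WT, and TGFB3, to 7.92 ± 0.410 TPM, against 18.8 ± 1.90 TPM in WT, the receptor TGFBR1, to 13.2 ± 0.131 TPM, against 26.8 ± 0.969 TPM in WT, and the shared transducer SMAD4, to 26.3 ± 0.680 TPM, against 31.0 ± 0.427 TPM in WT (-0.23). This list had a median log2 difference of -0.03, which became 0.08 with TMM factors. Those factors shift the median of all genes tested by 0.115, to -0.001.

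Of 15 genes around versican and hyaluronan 8 were tested, 3 higher and 5 lower in S127A. Of all genes tested 40.2% were higher and 49.8% lower. HAS1 and LAYN averaged under 1 TPM in WT, and TNFAIP6 and ADAMTS20 under 1 TPM in S127A. Each of these entered the test only through the other group, so the counts are no result about the list. The median log2 difference was -0.80, with -0.45 at a pseudocount of 5, -1.90 at a mean of at least 5 TPM and -0.01 over 15 genes with no filter. Of 6 ADAMTS proteases that can cleave versican 3 were tested and fell, ADAMTS1 to 6.62 ± 0.293 TPM in S127A, against 221 ± 5.40 TPM in WT (log2 difference -4.87, limma adjusted p = 1.22e-14), ADAMTS4 to 1.89 ± 0.0656 TPM, against 32.6 ± 1.43 TPM in WT, and ADAMTS20 to 0.570 ± 0.168 TPM, against 14.1 ± 0.556 TPM in WT. ADAMTS5, ADAMTS9 and ADAMTS15 did not pass the filter. ADAMTS5 had 0.00333 ± 0.00577 TPM in S127A and 1.22 ± 0.112 TPM in WT. ADAMTS9 had 0.00667 ± 0.00577 TPM in S127A and 0.113 ± 0.0252 TPM in WT. ADAMTS15 had 0.0267 ± 0.0306 TPM in S127A and 0.0200 TPM in WT. LAYN, a hyaluronan receptor, rose to 27.5 ± 1.74 TPM in S127A, against 0.0467 ± 0.0404 TPM in WT (4.77). Of 19 chondroitin sulfate enzymes 15 were tested, 6 higher and 7 lower, and 2 did not pass (median -0.11, and 0.01 with TMM factors). Of all genes tested 90.0% passed, 40.2% higher and 49.8% lower. XYLT1, CHSY3 and UST averaged under 1 TPM in S127A, and CHST11 and CHST15 under 1 TPM in WT. Each of these entered the test only through the other group, so these counts are no result about the list either. The chain-extending enzyme CHSY3 fell to 0.170 ± 0.0458 TPM in S127A, against 109.9 ± 3.31 TPM in WT (-6.57), and the sulfotransferase UST to 0.0167 ± 0.0289 TPM, against 12.0 ± 0.682 TPM in WT. XYLT1, which starts the chain, was listed at 0 in the 3 S127A libraries and at 2.87 ± 0.166 TPM in WT, whereas CSGALNACT2 rose to 40.7 ± 0.406 TPM, against 13.7 ± 1.02 TPM in WT.

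Enzymes that modify matrix proteins were measured too. Of 12 such genes 9 were listed and 7 tested, 4 higher and 3 lower in S127A (2 lower with TMM factors), with a median log2 difference of 0.42. Of all genes tested 90.0% passed, 40.2% higher and 49.8% lower, so that all 7 passed is no result about the list. FAM20C, the secretory kinase that phosphorylates osteopontin, rose to 42.6 ± 1.83 TPM in S127A, against 11.8 ± 0.511 TPM in WT (1.76). TGM2, a transglutaminase that crosslinks fibronectin and osteopontin, rose to 25.3 ± 0.982 TPM, against 2.59 ± 0.235 TPM in WT (2.88). The collagen lysyl hydroxylase PLOD1 fell to 33.8 ± 1.19 TPM in S127A, against 134 ± 2.16 TPM in WT (-1.95), and the disulfide isomerase P4HB to 394 ± 11.9 TPM, against 657 ± 9.40 TPM in WT (-0.74).

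**Figure D4:**
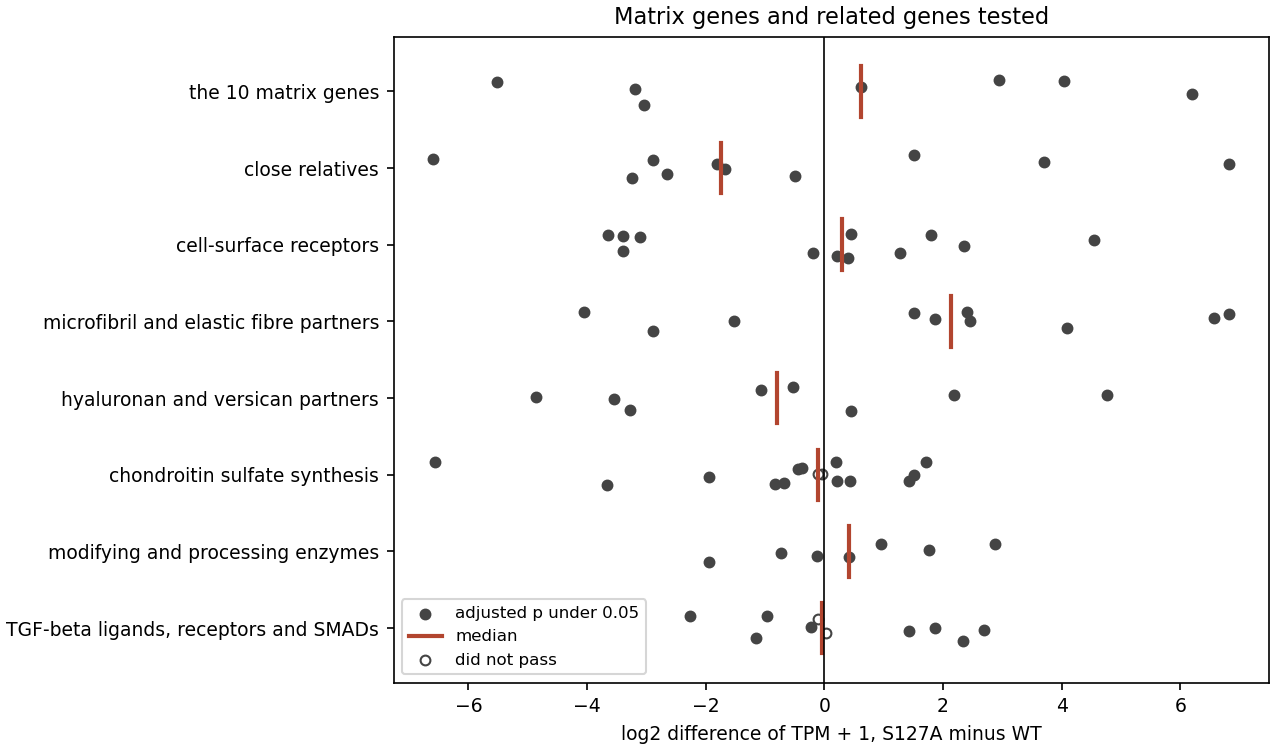
Log2 difference of TPM + 1 (S127A minus WT) for each gene tested in the 10 matrix genes and 7 related lists; filled points passed at an adjusted p under 0.05, open points did not, and the red line is the list's median. The medians run from -1.74 for close relatives to 2.13 for microfibril and elastic fibre partners, and every list has points on both sides of 0.

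SPP1 was the gene of the 10 with the highest mean TPM and, on the log2(TPM + 1) scale, the one of the 7 tested with the largest absolute difference. That second rank depends on the pseudocount: with 0.1 TPM the log2 difference of FBLN1 was -7.97 and that of SPP1 6.24. The 3 genes with the smallest Euclidean distance to it over the 6 log2(TPM + 1) values were CXCL2, a neutrophil chemokine (distance 2.56), RBPJ, the DNA-binding factor of Notch signalling (2.65), and BAIAP2L1, an actin-membrane adaptor (2.96). CXCL2 had 705.14, 710.94 and 696.02 TPM in S127A and 23.84, 20.73 and 23.98 TPM in WT. RBPJ averaged 718 ± 11.3 TPM in S127A and 37.4 ± 1.75 TPM in WT, and BAIAP2L1 591 ± 3.55 TPM in S127A and 26.3 ± 0.496 TPM in WT. Each lay near SPP1 in WT and below it in S127A. Distances over 2 groups of 3 rest mainly on the group means.

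The genome around the 10 genes was also read, through the nearest listed gene on each side. Of these 20 neighbours 9 were tested and all 9 passed, beside 90.0% of all genes tested, so the count is no result about these positions. For the genes of the 7 that had a tested neighbour, 4 neighbours went the same way as the matrix gene and 2 the opposite way. With 40.2% of all genes tested higher and 49.8% lower, these directions are no result about position either. PKD2, 18.4 kb beyond SPP1, was at 47.6 ± 1.12 TPM in S127A and 32.2 ± 1.35 TPM in WT, while IBSP, the bone sialoprotein gene on its other side, was at 0.0200 TPM in both. ATOX1, next to SPARC, fell to 87.9 ± 8.18 TPM in S127A, against 256 ± 12.0 TPM in WT. ATIC, 5.89 kb from FN1, was at 236 ± 6.88 TPM in S127A and 174 ± 1.90 TPM in WT (log2 difference 0.44, limma adjusted p = 1.16e-07), higher like FN1. MREG, the nearest listed gene on the other side of FN1 but 506 kb away, fell to 9.25 ± 0.287 TPM in S127A, against 37.3 ± 0.734 TPM in WT, opposite to FN1.

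Other cell types' markers also differed between these libraries. In the main fit 40.2% of all genes tested were higher and 49.8% lower. The small counts of tested markers below are therefore no result about a list. Of 10 fibroblast markers all were listed and 4 tested, all 4 higher, and the list summed to 289 to 302 TPM in S127A and 2.29 to 2.87 TPM in WT. LUM and THY1 were at 0 in S127A and averaged 0.0600 and 0.0233 TPM in WT. DCN and DPT were at 0 in WT and averaged 1.02 and 0.250 TPM in S127A. COL1A2 gave most of the summed TPM, with 275 ± 6.56 TPM in S127A and 1.41 ± 0.164 TPM in WT. The other genes tested, COL1A1, PDGFRA and FAP, averaged 0.587, 0.383 and 0.107 TPM in WT and entered the test only through S127A. The count of 4 is therefore no result about the list. With no filter 7 of the 10 were higher and 1 lower, beside 4876 higher and 5717 lower of all 14385 genes tested. Of 6 mesothelial markers, summing to 376 to 399 TPM in S127A and 0.150 to 1.13 TPM in WT, 1 was tested, MSLN, at 386 ± 11.9 TPM in S127A and 0.410 ± 0.365 TPM in WT. The other mesothelial markers were under 1 TPM in every library. CALB2 was at 0 in both groups. WT1 and KRT19 were at 0 in WT and averaged 0.0133 and 0.180 TPM in S127A. UPK3B averaged 0.0800 TPM in both groups, and LRRN4 0.0567 TPM in S127A and 0.0700 TPM in WT. Of 8 smooth muscle and pericyte markers 3 were tested, 1 higher and 2 lower, and they summed to 12.2 to 13.0 TPM in S127A and 20.2 to 20.5 TPM in WT. Of 8 endothelial and epithelial markers 7 were listed, summing to 63.2 to 64.0 TPM in S127A and 0.230 to 0.400 TPM in WT, and 1 was tested, KRT18, at 62.8 ± 0.362 TPM in S127A and 0.0900 ± 0.0900 TPM in WT. Of 9 immune markers 7 were listed and 2 tested, 1 higher (CD14, at 45.1 ± 1.77 TPM in S127A and listed at 0 in WT) and 1 lower, and they summed to 48.9 to 53.2 TPM in S127A and 8.20 to 9.04 TPM in WT. Among the endothelial and epithelial markers CDH5, KDR, TEK and KRT8 were at 0 in WT. In S127A these averaged only 0.0100, 0.0367, 0.133 and 0.493 TPM. MSLN, KRT18 and CD14 likewise entered the test only through S127A. The part of these shifts, and of the melanocyte shift, in the levels of the 10 genes was not tested.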

How the data were processed

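RNA-seq covered 6 libraries labelled B16F10, 3 S127A and 3 WT, with groups from the sample titles. TRIzol RNA was primed with random hexamers and sequenced at BGI, per the labels' protocols. The authors deposited gene-level TPM in 1 table, per the file headers, with mm10 as the build, per the submitters' processing notes. For aligner, quantifier, annotation and strand, nothing is stated in the sources used here. The table lists genes under upper-case symbols, and 14017 of 14915 symbols, all 10 matrix genes among them, matched a GENCODE M21 mouse symbol written in upper case.

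Genes with a mean of at least 1 TPM were tested on log2(TPM + 1) with limma 3.58.1 (R 4.3.3; eBayes with trend, genotype as the only term, two-sided), and Benjamini-Hochberg adjustment ran over 10348 genes, with calls at 0.05. Log2 differences are S127A minus WT and understate changes of low genes. Of genes under the filter only TNC, FBN1 and VCAN were compared, by an exact permutation test, and the others were not tested in the main fit. No count model was run on TPM. The fit was tested on simulated data. TMM factors were unweighted trimmed means of the log ratios of TPM. Summaries used Python 3.11.15 and pandas 2.3.3. The 10 genes and all lists were chosen with earlier results of these data known. Named were the 10 genes, the 4 smallest adjusted p of each of the 7 lists of related genes, and the 3 genes most like SPP1. Neighbours, marker genes and genes named by role were chosen after their values were seen.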

Additional observations from a re-analysis of the deposited data

How the results depend on the processing

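The 7 calls kept their direction and passed under every alternative that tested them: pseudocounts of 0.1 and 5, other filters, TMM factors, quantile normalization, a common total, no trend, robust hyperparameters and leaving out each library. POSTN, THBS1 and THBS2 were not tested with a mean of at least 5 TPM, which left 2 genes higher instead of 4 and 2 lower instead of 3. With no filter VCAN (0.21, adjusted p = 0.0101) and FBN1 (0.16, adjusted p = 0.00533) passed in limma. With single libraries left out, SPP1 ran from 6.09 to 6.26, FN1 from 4.02 to 4.06, SPARC from -3.21 to -3.19 and THBS1 from 0.57 to 0.69. Of 54 other genes followed through these alternatives, 1 lost its call under 1 alternative (ITGAV). Same-numbered libraries correlated at 0.117, 0.017 and 0.028 in their deviations from the group means, which cannot show whether they shared a batch. The labels do not state that the numbers pair libraries. With the replicate number as a block, 4 genes were higher and 3 lower among the 10, and 4178 higher and 5161 lower among all genes tested. The permutation test of VCAN, FBN1 and TNC was not run with the block, quantile ranks or limma settings, which it does not use. TPM without depth gives no counting error for values near 0.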
